A study of Mus musculus with 2 samples.

Results

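The 6 genes described here carry the import, use and recycling of the amino acid arginine: Slc7a2, Nos2, Arg1, Arg2, Ass1 and Odc1. They were chosen by gene symbol, and all 6 were found among the 32285 genes counted in tumors of MC38, a colon cancer line of the mouse. Tumors from wild-type mice (Lmo7+/+) and from mice lacking LMO7, a LIM domain protein, in the whole body (Lmo7-/-) were dissociated with enzymes, freed of red blood cells, sorted for live cells and profiled by droplet single-cell RNA sequencing. The question set by this design was how host LMO7 shapes the cells of the tumor. In both groups the injected MC38 cells came from the same line and were not themselves knocked out, no other treatment is labelled, and the labels give neither age, strain nor the number of mice behind a library. By the study's methods the hosts were young female mice. Each genotype had 1 library, so no difference between genotypes could be tested against the spread between mice, and every interval below is a 95% interval for counting error only.

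After a filter on cells, 13542 cells of the Lmo7+/+ library and 11860 cells of the Lmo7-/- library were kept, with medians of 4535.5 and 4304.5 UMIs (unique molecular identifiers, each a counted RNA molecule). Lmo7 itself, the deleted gene, gave no check of the labels: its level in macrophage-like cells was 0.423 CPM (counts scaled to a total of 1000000 per class and library; from 8 counts) in the library labelled Lmo7+/+ and 0.565 CPM (11 counts) in the library labelled Lmo7-/-, and in host endothelial cells it was 36.6 CPM and 29.1 CPM. Whether the counted tags lie inside the deleted part of Lmo7 is not given in the sources used here. The genotypes below are therefore those of the labels. The libraries shared 279 cell barcodes, 175 of them among the kept cells, and leaving out those cells left the log2 ratio in macrophage-like cells at 1.91 for Nos2 and 1.73 for Arg1.

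Arginine is taken up by macrophages through cationic amino acid transporters, of which the SLC7A2 protein is the inducible one in these cells. Inside the cell, inducible nitric oxide synthase, encoded by Nos2, turns it into nitric oxide and citrulline, whereas the arginases, cytosolic Arg1 and mitochondrial Arg2, split it into urea and ornithine. Citrulline can be rebuilt into arginine in a path that starts with argininosuccinate synthase (Ass1), and ornithine feeds polyamine synthesis through ornithine decarboxylase (Odc1). Nos2 is widely used as a marker of macrophages activated by interferon gamma and bacterial products, and Arg1 as a marker of macrophages activated by interleukin 4 or found in tumors and wounds.

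By the GENCODE annotation of the mouse genome (build GRCm38), the genes are protein-coding and lie on 5 chromosomes. Slc7a2 spans chr8:40862396-40922308 and Nos2 chr11:78920787-78960254. The arginase genes are not neighbours, with Arg1 at chr10:24915221-24927484 and Arg2 at chr12:79130777-79156301. Ass1 lies at chr2:31470207-31520672 and Odc1 at chr12:17544794-17551505. Arg1 is on the minus strand and the other 5 genes are on the plus strand. Within its span Arg2 overlaps Vti1b (13443 counts over all kept cells) and Gm48780 (62 counts) on the opposite strand. Slc7a2 (opposite strand) and Odc1 (same strand) also overlap annotated genes, which are not among those counted. Whether these overlaps affect the levels was not tested.

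Cells were assigned to classes by their clusters' marker genes. Macrophage-like cells numbered 3212 under the label Lmo7+/+ and 3859 under the label Lmo7-/-, monocyte-like cells 1002 and 828, and tumor cell-like cells 6452 and 4177. Hmga2, a gene of the tumor cell list, was at 277 CPM in the tumor cell-like class and 11.2 CPM in the macrophage-like class. All 16 genes of that list summed to 493 CPM (Lmo7+/+) and 671 CPM (Lmo7-/-) in the tumor cell-like class. Only 7 and 6 of them reached 5 CPM. In the macrophage-like class they summed to 41.4 CPM and 37.3 CPM, and 2 reached 5 CPM in each library. No cluster of all cells was named for neutrophils, although some of their markers were detected in each of the states below. The classes of B cells (27 and 19 cells) and of mast cells or basophils (7 and 21) are too small for these genes and are left aside. Macrophage-like and monocyte-like cells were then split into 8 states, clustered without the 6 genes and without the wider arginine gene list, and named by their leading genes. The largest state, Igkc H2-M2 Vcam1, held 3340 cells. Ly6c2 Plac8 Ifitm1 held 1920 cells, 1477 of them from the monocyte-like class, and Ccna2 Pclaf Birc5, the proliferating state, held 1685. The smaller states were Hspa1b Hspa1a Gpnmb with 812 cells, Cd300e Fcrl5 Klra17 with 431, Sparc H19 Dclk1 with 376, S100a8 S100a9 Chil3 with 178 and Retnla Folr2 Cbr2 with 159. In S100a8 S100a9 Chil3 the 10 neutrophil markers summed to 4017 CPM under the label Lmo7+/+, with 10 of 10 at 5 CPM or more. Under the label Lmo7-/- they summed to 662 CPM, with 6 of 10 at 5 CPM or more, 4 of 10 at 0 and 0 of 10 higher. In Ly6c2 Plac8 Ifitm1 they summed to 1474 CPM and 1330 CPM, with 4 of 10 at 5 CPM or more in each library. In the Sparc H19 Dclk1 state 16 tumor cell markers summed to 114 CPM and 185 CPM, beside 27.1 CPM and 28.9 CPM in Igkc H2-M2 Vcam1, and their part in its values was not tested.

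Within macrophage-like cells, Nos2 and Arg1 were both more than 3-fold higher in the library labelled Lmo7-/-, although they are usually read as markers of opposite activation. Slc7a2 and Ass1 were higher by less, Arg2 was nearly level and Odc1 was level. Of the 6 genes, 2 were past a 2-fold difference upward and 0 downward in macrophage-like cells, where 1.32% of the 12107 genes with at least 20 counts, all 6 members among them, were past it upward and 1.38% downward. The median log2 ratio of the 6 genes was 0.68, beside -0.10 for all genes tested. Among monocyte-like cells 3 of the 6 were past 2-fold upward (Nos2, Arg1 and Slc7a2) and 0 downward, against 0.777% and 1.77% of 9911 genes. Slc7a2, at a log2 ratio of 1.26 there, lay just under 2-fold at resolution 1.0 (0.97) and without cells carrying markers of another lineage (0.99). Tumor cell-like cells had 2 upward (Nos2 and Arg1, the latter at trace level) and 1 downward (Arg2, at trace level), against 1.01% and 1.54% of 13885 genes. The Arg2 ratio, -1.48 on the log2 scale, was -0.32 with doublets removed, -0.46 with the members allowed in clustering and -0.69 at resolution 0.2, each with an interval that includes 0. The Arg1 ratio of 1.05 was 0.96 (0.09 to 1.85) with a strict filter.

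**Figure D1:**
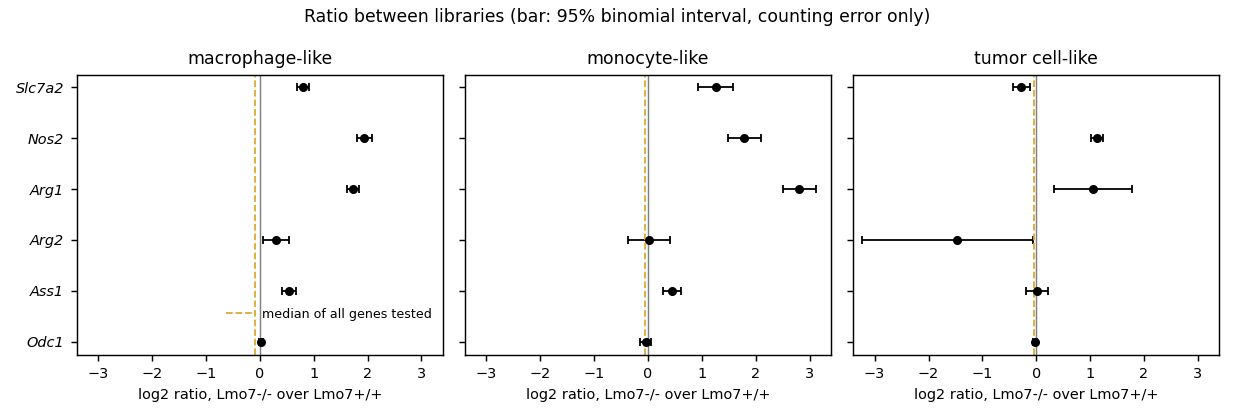
Log2 ratio of the library labelled Lmo7-/- over the library labelled Lmo7+/+ for the 6 genes in macrophage-like, monocyte-like and tumor cell-like cells (x axis, log2 of the CPM ratio; points are ratios of summed counts, bars are 95% binomial intervals for counting error, and the dashed line is the median of all genes tested). Nos2 lies at 1.94, 1.78 and 1.13 in the 3 classes, Arg1 at 1.72 and 2.80 in macrophage-like and monocyte-like cells, and Odc1 between -0.04 and 0.02.

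Slc7a2, the inducible arginine transporter, was counted at 53.1 CPM (49.8 to 56.5) in macrophage-like cells of the library labelled Lmo7+/+ and at 92.9 CPM (88.7 to 97.3) in the library labelled Lmo7-/-. The ratio was 1.75-fold (1.62 to 1.89), a smaller difference than that of Nos2 or Arg1. Among monocyte-like cells the level was 30.2 CPM (25.1 to 36.0) and 72.3 CPM (63.2 to 82.3), and the log2 ratio was 1.26 (0.94 to 1.58). Slc7a2 thus lay above the Lmo7+/+ level in both classes, and its intervals did not overlap between libraries in either.

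Tumor cells gave the opposite sign for the transporter. The level of Slc7a2 was 19.7 CPM (18.5 to 20.9) in the library labelled Lmo7+/+ and 16.2 CPM (14.9 to 17.7) in the library labelled Lmo7-/-, with a log2 ratio of -0.28 (-0.43 to -0.12). The lower level lay in the tumor cluster led by Cdsn and Car9, at 24.4 CPM and 18.3 CPM, while the dividing cluster led by Anln and Trip13 was level at 15.9 CPM and 15.6 CPM. With a more lenient filter on cells the log2 ratio was 0.011 (-0.14 to 0.16), and the cause was not tested. T or NK cell-like cells held 2.91 CPM (5 counts) and 4.64 CPM (10 counts).

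Across the macrophage and monocyte states, over both libraries, the level of Slc7a2 was highest in Hspa1b Hspa1a Gpnmb at 177 CPM (164 to 191), followed by Igkc H2-M2 Vcam1 at 86.9 CPM (82.5 to 91.5) and Sparc H19 Dclk1 at 68.7 CPM (57.4 to 81.6), each with an interval clear of the next. Ly6c2 Plac8 Ifitm1, Retnla Folr2 Cbr2 and the proliferating state followed between 40.4 and 47.8 CPM, with overlapping intervals between neighbours. In the Hspa1b state it was 122 CPM in the library labelled Lmo7+/+ and 231 CPM in the library labelled Lmo7-/-. Slc7a2 was higher in the library labelled Lmo7-/- in 7 of 8 states, and in 5 of them the interval of the ratio lay above 0 on the log2 scale. The exception was the Retnla state, at 51.0 CPM and 43.2 CPM, where the interval of the log2 ratio ran from -1.26 to 0.77.

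Nos2 was counted at 25.9 CPM (23.7 to 28.3, from 490 counts) in macrophage-like cells of the library labelled Lmo7+/+. The same class held 99.5 CPM (95.1 to 104, from 1937 counts) in the library labelled Lmo7-/-. The ratio was 3.84-fold (3.47 to 4.25), or 1.94 on the log2 scale, and placed Nos2 at percentile 99.8 of all genes tested in these cells. Monocyte-like cells held 30.5 CPM (25.4 to 36.3) and 105 CPM (93.9 to 117), so that monocytes and macrophages of the same library had Nos2 at nearly the same level.

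A UMI of Nos2 was found in few cells. After every cell was thinned to 1500 UMIs, which left out 155 and 321 macrophage-like cells below that depth, 3.01% (2.43 to 3.68) of macrophage-like cells in the library labelled Lmo7+/+ and 8.14% (7.26 to 9.09) in the library labelled Lmo7-/- held one. Unthinned, the shares were 6.44% and 14.0%, at median depths of 5361 and 4503 UMIs, so the library with the higher share was the shallower one. Thinned T or NK cell-like cells, which should lack Nos2, gave 0.709% (0.146 to 2.06) and 0.745% (0.203 to 1.90), from 3 and 4 cells, at unthinned median depths of 2148 and 2208 UMIs. They serve as the reference for free RNA below.

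Nos2 molecules were concentrated in a small fraction of these cells. Ranked by Nos2, the top 1% of macrophage-like cells held 50.8% of its UMIs in the library labelled Lmo7+/+ and 36.1% in the library labelled Lmo7-/-. Cells with at least 10 Nos2 UMIs numbered 5 and 47, and the highest cells held 39 and 37 UMIs. For Arg1, the 1% of cells with the most UMIs held 60.5% and 37.5% of them, and cells with at least 10 UMIs numbered 13 and 82. Odc1, by contrast, had 7.05% and 8.33% of its UMIs in the top 1% of cells. Since molecules of 1 cell are not independent, the counting intervals of Nos2 and Arg1 are too narrow. Without the top 1% of cells by each gene, the log2 ratio was 2.32 for Nos2 and 2.39 for Arg1, with the larger share of UMIs removed from the library labelled Lmo7+/+.

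Tumor cell-like cells also held Nos2. The level was 19.8 CPM (18.6 to 21.0) in the library labelled Lmo7+/+ and 43.3 CPM (41.1 to 45.6) in the library labelled Lmo7-/-, a ratio of 2.19-fold (2.02 to 2.37). Because tumor cells were the largest class, they held 54.6% of all Nos2 UMIs in kept cells of the library labelled Lmo7+/+ and 32.9% in the library labelled Lmo7-/-, while macrophage-like cells held 25% and 44.7%. The class with the largest share of Nos2 was thus not the same in the libraries.

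Among the tumor clusters, the one led by Cdsn and by Car9, a gene induced by low oxygen, held 30.6 CPM (28.6 to 32.7) and 68.9 CPM (64.9 to 73.1) of Nos2. The dividing Anln Trip13 cluster held 6.42 CPM (5.45 to 7.51) and 15.5 CPM (13.6 to 17.6). Thinned, 8.81% (7.47 to 10.3) of Cdsn Car9 cells in the library labelled Lmo7-/- had a Nos2 UMI and 4.21% (3.46 to 5.08) in the library labelled Lmo7+/+. Both shares exceed those of T or NK cell-like cells. The cluster led by Hba-a1 and Hba-a2, at 28.7 CPM (22.7 to 35.8) and 45.2 CPM (36.4 to 55.5), overlapped Cdsn Car9 in the library labelled Lmo7+/+ and lay under it in the library labelled Lmo7-/-. It carried hemoglobin transcripts and had a median depth of 2041 UMIs, the lowest of the 3.

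The proportion of Nos2 to Arg1 in tumor cells was not that of macrophages. Macrophage-like cells held 0.557 Nos2 UMIs per Arg1 UMI in the library labelled Lmo7+/+ and 0.648 in the library labelled Lmo7-/-, whereas tumor cell-like cells held 34.6 and 36.5. Without the tumor cells that carried at least 3 UMIs of macrophage markers, the log2 ratio of Nos2 between libraries was 1.16 (1.03 to 1.29), beside 1.13 with them. Endothelial cell-like cells held Nos2 at 73.2 CPM (51.3 to 101) and 85.0 CPM (59.2 to 118) and fibroblast-like cells at 38.8 CPM and 38.0 CPM, and in neither did the libraries differ beyond the counting interval. The log2 ratio was 0.22 (-0.50 to 0.93) in endothelial cells and -0.03 (-0.94 to 0.87) in fibroblasts. The higher Nos2 of the library labelled Lmo7-/- was therefore seen in macrophages, monocytes and tumor cells, and in these 2 stromal classes a 2-fold difference lies outside the interval in the upward direction. Thinned, 8.14% (3.34 to 16.1) and 9.52% (3.58 to 19.6) of endothelial cells had a Nos2 UMI, above the T or NK cells. The 2.06% (0.251 to 7.25) and 1.23% (0.0313 to 6.69) of fibroblasts overlap that share, so the share of cells does not separate them from free RNA. By level the counting intervals were apart. Over both libraries fibroblast-like cells held 38.5 CPM (28.2 to 51.3) and T or NK cell-like cells 3.10 CPM (1.60 to 5.41). The fibroblast level rests on 25 and 21 UMIs, and such intervals are too narrow where few cells hold the molecules.

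**Figure D2:**
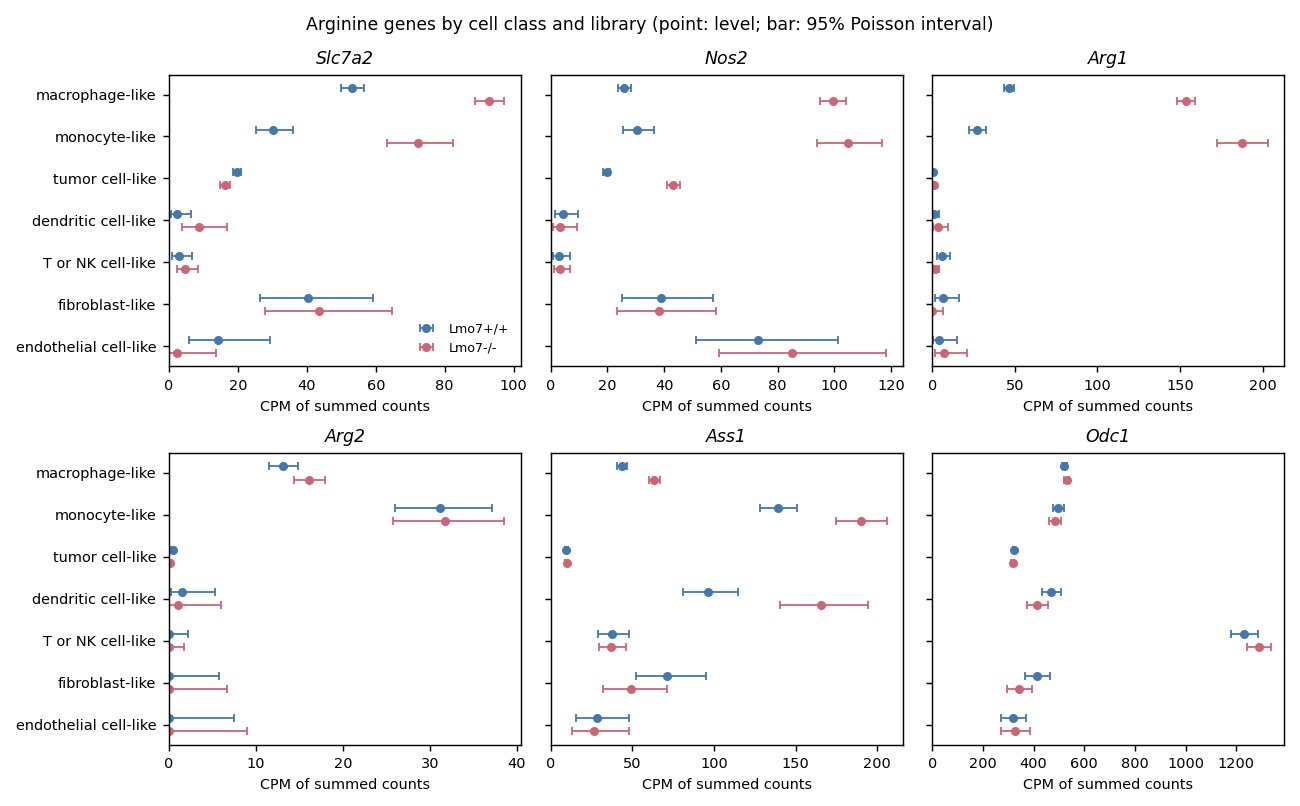
Level of each gene by cell class and library (x axis, CPM of counts summed over the cells of a class; blue, library labelled Lmo7+/+, red, library labelled Lmo7-/-; points are levels and bars 95% Poisson intervals). Arg1 is at or below 7.29 CPM in the 5 other classes drawn, Nos2 is also counted in tumor cells and endothelial cells, and Odc1 is highest in T or NK cells, at 1232 and 1288 CPM.

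Among the states, the Hspa1b Hspa1a Gpnmb cells, marked by heat shock genes and by Gpnmb and Mmp12, had the highest Nos2. Their level was 151 CPM (134 to 170) in the library labelled Lmo7+/+ and 400.0 CPM (372 to 430) in the library labelled Lmo7-/-, and 11.4% and 23.6% of the thinned cells had a UMI. These 812 cells held 44.6% and 32.9% of the Nos2 UMIs of all 8 states, and Nos2 and Arg1 were among the state's 10 leading genes although neither was used to form it. The level over both libraries, 278 CPM, was clear of the next, 68.5 CPM in Ly6c2 Plac8 Ifitm1. Neighbours from there on, Sparc H19 Dclk1 at 55.0 CPM and Igkc H2-M2 Vcam1 at 54.8 CPM, overlapped in their intervals, and the remaining 4 states lay between 9.58 and 20.1 CPM with each neighbour overlapping.

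The Igkc H2-M2 Vcam1 state had the widest Nos2 difference between libraries among the large states. It held 13.9 CPM (11.4 to 16.8) in the library labelled Lmo7+/+ and 91.2 CPM (85.0 to 97.7) in the library labelled Lmo7-/-, so that the log2 ratio was 2.71 (2.42 to 3.01), beside 1.40 (1.20 to 1.61) in the Hspa1b state. Through this, the share of Nos2 UMIs that came from Igkc H2-M2 Vcam1 cells was 17.7% in the library labelled Lmo7+/+ and 35.3% in the library labelled Lmo7-/-. At state resolution 0.8 no state had this name. Of the cells in Il10 Pmepa1 Arl5c, Igkc Ighg2b Xcr1 and Ccl8 Ccl5 Il18bp there, 32.4%, 78.4% and 81.4% were labelled Lmo7-/-. The part of such uneven finer states in the ratio of 2.71 was not tested. Nos2 was higher in the library labelled Lmo7-/- in 8 of 8 states, with the interval above 0 in 6. The 2 others rest on few counts: 2 and 16 in the Cd300e state, and 0 and 6 in the S100a8 state, where 3 counts, the limit that 0 allows, would be 12.2 CPM. Among the 6, the Retnla state also rests on few counts, 1 and 13. In the Sparc state 1 cell labelled Lmo7-/- held 32 of 74 UMIs. Without the highest cell of each library the log2 ratio there was 1.00 (0.26 to 1.78).

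Arg1 was counted at 46.5 CPM (43.5 to 49.7, from 879 counts) in macrophage-like cells of the library labelled Lmo7+/+. In the library labelled Lmo7-/- its level there was 153 CPM (148 to 159, from 2989 counts), a ratio of 3.30-fold (3.06 to 3.56) and percentile 99.7 of all genes tested. Monocyte-like cells differed more, at 26.8 CPM (22.0 to 32.3) and 187 CPM (172 to 203), a ratio of 6.99-fold (5.69 to 8.64). This log2 ratio, 2.80 as computed, was 3.95 (3.49 to 4.45) with a lenient filter on cells and 3.84 (3.42 to 4.28) with a strict one. Both settings also redrew the clusters. Monocyte-like cells then numbered 691 and 543 (lenient) and 589 and 363 (strict), beside 1002 and 828 as computed. The size of this ratio was therefore not stable, and the parts of the filter and of the class borders were not separated. Arg1 was thus lower in monocytes than in macrophages in the library labelled Lmo7+/+ and higher in monocytes in the library labelled Lmo7-/-, with intervals that did not overlap within either library.

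Thinned shares had the same order, but in each library the intervals of macrophage-like and monocyte-like cells overlapped, so the shares do not separate these classes. A UMI of Arg1 was found in 3.53% (2.91 to 4.25) and 9.21% (8.28 to 10.2) of macrophage-like cells, and in 2.80% (1.82 to 4.10) and 11.1% (8.96 to 13.6) of monocyte-like cells. In T or NK cell-like cells the shares were 0.709% (0.146 to 2.06) and 0.372% (0.0451 to 1.34). Tumor cell-like cells had 0.221% (0.114 to 0.385) and 0.286% (0.137 to 0.525), no higher than that share and with overlapping intervals, at levels of 0.571 CPM and 1.19 CPM. Arg1 there is read as background, although its ratio between libraries was past 2-fold. Macrophage-like cells held 79.5% and 78.4% of all Arg1 UMIs in kept cells, and monocyte-like cells 9.95% and 15.5%.

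By state, Arg1 was highest over both libraries in Hspa1b Hspa1a Gpnmb at 432 CPM (411 to 454), next in Retnla Folr2 Cbr2 at 269 CPM (234 to 307) and then in Ly6c2 Plac8 Ifitm1 at 105 CPM (98.0 to 112). The second place rests on 2 cells labelled Lmo7+/+, described below. Without the 2 highest cells of each library the Retnla state held 62.7 CPM and 94.8 CPM, and within the library labelled Lmo7-/- it lay under Ly6c2 Plac8 Ifitm1, at 145 CPM against 190.4 CPM. Igkc H2-M2 Vcam1, Sparc H19 Dclk1, S100a8 S100a9 Chil3 and the proliferating state lay between 44.6 and 72.7 CPM, overlapping from neighbour to neighbour. Cd300e Fcrl5 Klra17 stood apart at 3.19 CPM (1.17 to 6.95). The same state was also the lowest for Nos2, Arg2, Slc7a2 and Ass1, though for Nos2, Slc7a2 and Ass1 its interval overlapped the next.

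Between libraries the Hspa1b state held 227 CPM (205 to 250) of Arg1 under the label Lmo7+/+ and 631 CPM (596 to 668) under the label Lmo7-/-, and the log2 ratio was 1.48 (1.31 to 1.64). Wider differences were found in states with little Arg1 in the library labelled Lmo7+/+. In the proliferating state the level was 11.6 CPM and 86.3 CPM and in Ly6c2 Plac8 Ifitm1 25.7 CPM and 190.4 CPM, each a log2 ratio of 2.89. In Igkc H2-M2 Vcam1 it was 25.4 CPM and 115 CPM, a log2 ratio of 2.17 (1.95 to 2.40). Holding the makeup of states at that of the library labelled Lmo7+/+ left the log2 ratio over macrophage-like and monocyte-like cells together at 1.88 for Arg1 and moved it from 1.91 to 1.87 for Nos2. This was computed for the 8 states as drawn here and for no other resolution.

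**Figure D3:**
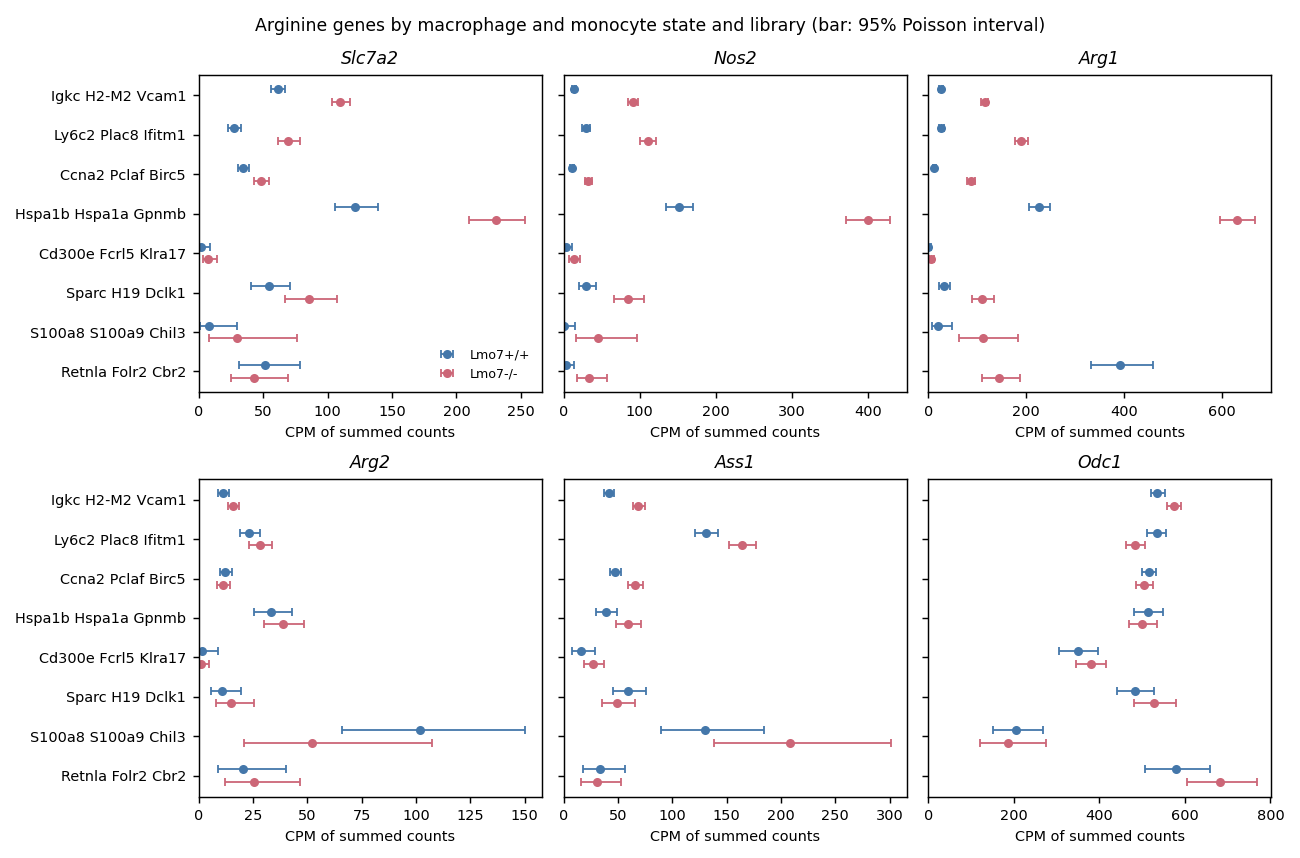
Level of each gene in the 8 macrophage and monocyte states by library (x axis, CPM of summed counts; blue, library labelled Lmo7+/+, red, library labelled Lmo7-/-; bars, 95% Poisson intervals). Nos2, Arg1 and Slc7a2 share their highest state, Hspa1b Hspa1a Gpnmb, with 400.0, 631 and 231 CPM in the library labelled Lmo7-/-, and Arg1 in the Retnla Folr2 Cbr2 state has the opposite order, 393 and 145 CPM.

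The Retnla Folr2 Cbr2 state went the other way for Arg1. Its level was 393 CPM (333 to 460) in the library labelled Lmo7+/+ and 145 CPM (110 to 187) in the library labelled Lmo7-/-, with a log2 ratio of -1.44 (-1.91 to -0.99). Of the 154 Arg1 UMIs in the 76 cells labelled Lmo7+/+, 69 and 62 were in 2 cells, while the highest of the 83 cells labelled Lmo7-/- held 11 and 10. Without the 2 highest cells of each library the state held 23 and 36 UMIs, or 62.7 CPM and 94.8 CPM, and the log2 ratio was 0.60 (-0.20 to 1.42). The shares of thinned cells with Arg1 were 11.9% (5.30 to 22.2) and 13.5% (6.68 to 23.5). The lower Arg1 of this state in the library labelled Lmo7-/- therefore rested on 2 cells, and no difference in the share of cells was detectable at this depth.

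**Figure D4:**
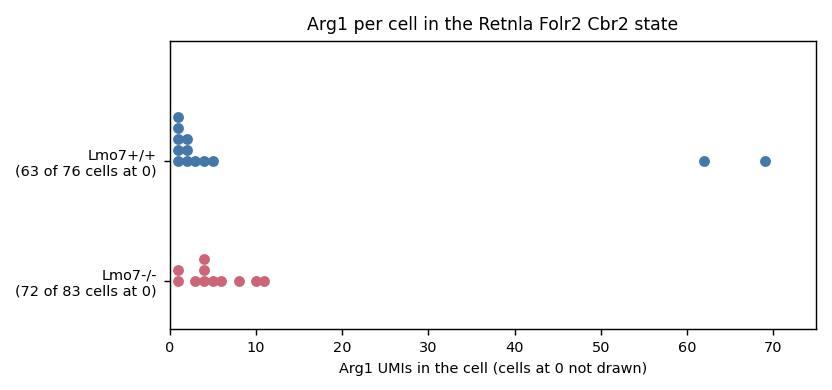
Arg1 UMIs in each cell of the Retnla Folr2 Cbr2 state that held any (x axis, UMIs per cell; 1 point per cell; rows, libraries). Of 76 cells labelled Lmo7+/+, 13 held Arg1 and 2 of them, with 62 and 69 UMIs, stand apart, whereas the 11 positive cells of 83 labelled Lmo7-/- reach 11 UMIs.

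Arg2, the mitochondrial arginase, did not follow Arg1. In macrophage-like cells it was 13.1 CPM (11.5 to 14.8) and 16.1 CPM (14.3 to 18.0), for a log2 ratio of 0.30 (0.05 to 0.55). Monocyte-like cells held 31.2 CPM (26.0 to 37.1) and 31.7 CPM (25.8 to 38.5), for a log2 ratio of 0.02 (-0.37 to 0.41). In both libraries it was higher in monocytes than in macrophages. The state with the highest Arg2 was S100a8 S100a9 Chil3, 175 of whose 178 cells came from the monocyte-like class, with 102 CPM (25 counts) in the library labelled Lmo7+/+ and 52.0 CPM (7 counts) in the library labelled Lmo7-/-. The neutrophil markers of this state, at 4017 CPM and 662 CPM, had the same order, and their part in its Arg2 was not tested. The log2 ratio there, -0.97, had an interval from -2.42 to 0.28 and does not separate the libraries. The Hspa1b state followed, at 33.2 CPM and 38.6 CPM. Tumor cells held only 23 and 5 Arg2 counts, and T or NK cell-like cells 0 and 0, which allows up to 1.75 CPM and 1.39 CPM.

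Ass1, the first enzyme that rebuilds arginine from citrulline, was highest in monocytes and dendritic cells among the classes. Its level was 139 CPM (128 to 151) and 189.8 CPM (175 to 206) in monocyte-like cells and 96.5 CPM (80.7 to 114) and 166 CPM (141 to 194) in dendritic cell-like cells. Macrophage-like cells held less, 43.5 CPM (40.6 to 46.6) and 63.5 CPM (60.0 to 67.1). The ratio between libraries was 1.36-fold (1.21 to 1.53) in monocytes and 1.46-fold (1.34 to 1.60) in macrophages, so that Ass1 was higher in the library labelled Lmo7-/- in these classes but past 2-fold in neither.

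Ass1 also did not share the state of Nos2. Its highest states were S100a8 S100a9 Chil3 at 158 CPM (121 to 203) and Ly6c2 Plac8 Ifitm1 at 147 CPM (139 to 156) over both libraries, which overlapped. The part of neutrophil RNA in the former was not tested. The Hspa1b state, which led for Nos2, held 49.0 CPM. Outside myeloid cells Ass1 was 9.64 CPM and 9.76 CPM in tumor cells and 37.8 CPM and 37.1 CPM in T or NK cells. As computed it was level between libraries in both. For tumor cells this was not stable, as 3 of 12 alternatives moved beyond the counting interval. The log2 ratio there, 0.02, was -0.35 (-0.51 to -0.18) at resolution 0.2. With 20 principal components it was -0.30 (-0.48 to -0.12), and as a mean over cells -0.30. An unnamed cluster led by Enpp2 and Serpine2 differed in the opposite direction, at 23.5 CPM (196 counts) and 5.55 CPM (66 counts), a log2 ratio of -2.08 (-2.51 to -1.67).

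Odc1, which commits ornithine to polyamines, was level between libraries. Macrophage-like cells held 522 CPM (511 to 532) and 530.0 CPM (520 to 540), monocyte-like cells 498 CPM and 483 CPM, and tumor cell-like cells 323 CPM and 318 CPM. The log2 ratio in macrophages was 0.02 (-0.02 to 0.06), well within 1.5-fold. T or NK cell-like cells had the highest level of any class, 1232 CPM (1181 to 1286) and 1288 CPM (1241 to 1337). Among the states, Retnla Folr2 Cbr2 led with 631 CPM (577 to 689) over both libraries and S100a8 S100a9 Chil3 was lowest with 197 CPM (155 to 247), a narrower span than for the other 5 genes.

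Nos2 and Arg1 were found in the same cells more often than their shares alone give. Of 3057 thinned macrophage-like cells in the library labelled Lmo7+/+, 92 held Nos2, 108 held Arg1 and 23 held both, where 3.25 cells with both would be found if the genes were spread independently, a ratio of 7.08 (4.49 to 10.6). In the library labelled Lmo7-/-, 288 of 3538 cells held Nos2, 326 held Arg1 and 78 held both, where 26.5 would be, a ratio of 2.94 (2.32 to 3.67). The excess was present in both libraries. The number of cells with both was larger in the library labelled Lmo7-/-, and the ratio was larger in the library labelled Lmo7+/+.

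Read the other way, 25% of the Nos2 cells labelled Lmo7+/+ and 27.1% of those labelled Lmo7-/- also held Arg1, against 2.87% and 7.63% of cells without Nos2. Most cells with either gene at this depth therefore held a UMI of only 1 of them, which includes cells where the other was missed. With 1 Nos2 UMI, 15.9% (8.24 to 26.7) and 24.1% (17.8 to 31.3) of cells held Arg1. With 2 or more Nos2 UMIs the shares were 52.2% (30.6 to 73.2) and 31.1% (23.1 to 40.2), the first resting on 23 cells.

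**Figure D5:**
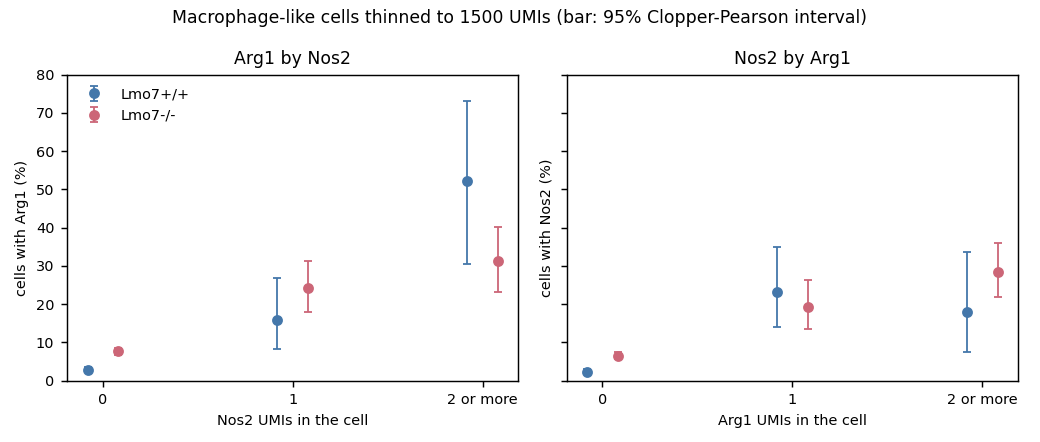
Share of thinned macrophage-like cells with Arg1 by the number of Nos2 UMIs in the cell (left), and share with Nos2 by the number of Arg1 UMIs (right), for each library (y axis, percent of cells; bars, 95% Clopper-Pearson intervals). Cells without Nos2 held Arg1 in 2.87% and 7.63% of cases, and cells with 1 or more Nos2 UMIs in 15.9% to 52.2%.

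Both genes were highest in the Hspa1b state, which held 17 of the 23 cells with both genes in the library labelled Lmo7+/+ (73.9%) and 37 of 78 in the library labelled Lmo7-/- (47.4%), while Igkc H2-M2 Vcam1 held 2 and 21. When the expected number was summed over states, it was 6.82 and 40.4 cells, and the ratio 3.37 (2.14 to 5.06) and 1.93 (1.53 to 2.41), so an excess was found within states too. Inside the Hspa1b state alone the ratio was 3.04 (1.77 to 4.86) and 1.45 (1.02 to 2.00).

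Monocyte-like cells held 0 cells with both in the library labelled Lmo7+/+, where 0.755 would be expected, and 13 in the library labelled Lmo7-/-, where 7.46 would be, a ratio of 1.74 (0.93 to 2.98). A departure from independence was not detectable in that class. In the Ly6c2 Plac8 Ifitm1 state, 1477 of whose 1920 cells were monocyte-like, 18 cells labelled Lmo7-/- held both where 8.63 would be expected, a ratio of 2.09 (1.24 to 3.30). Of these 18 cells, 7 were macrophage-like, so this ratio is not one of monocytes alone. No tumor cell-like cell held both after thinning in either library, with 0.360 and 0.575 expected. Set against every other gene tested in thinned macrophage-like cells, Arg1 ranked 1 of 8633 genes by its ratio with Nos2 in the library labelled Lmo7+/+ and 12 of 8480 in the library labelled Lmo7-/-, where Tnfrsf9 ranked first. The median ratio with Nos2 over all genes was 0.923 and 0.940.

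The transporter was found with both genes, and Odc1 with neither, more often than independence gives. In the library labelled Lmo7-/-, Slc7a2 and Arg1 were found together 2.95 times as often as by independence (2.40 to 3.60) and Slc7a2 and Nos2 2.49 times (1.95 to 3.13). Arg2 had a ratio of 2.87 (1.70 to 4.54) with Nos2, from 18 cells with both, and of 1.83 (0.98 to 3.13) with Arg1, from 13. For Ass1 the ratio was 1.01 (0.67 to 1.48) with Arg1 and 1.49 (1.04 to 2.07) with Nos2, and for Odc1 it was 0.956 with Arg1 and 0.933 with Nos2. The library labelled Lmo7+/+ gave 2.77 (1.67 to 4.33) for Slc7a2 with Arg1 and 1.88 (0.94 to 3.37) for Slc7a2 with Nos2. For Arg2 it gave 4.25 (1.94 to 8.06) with Arg1, from 9 cells, and 2.77 (0.90 to 6.46) with Nos2, from 5, so the order of these 2 pairs was not that of the library labelled Lmo7-/-, with overlapping intervals.

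Over the 8 states in both libraries (16 points, which share libraries and depth), the genes whose levels were most like Nos2 among 9295 genes were Tnfrsf9 (r = 0.876), Vegfa (0.871), Bnip3 (0.855), Slc7a2 (0.824) and Cir1 (0.801), by Pearson's r of log2(CPM + 10). For Arg1 they were Cd36 (r = 0.886), Fcgr2b (0.871), Srxn1 (0.850), Ralgds (0.815) and Slc7a2 (0.808). Slc7a2 was in both lists. Nos2 and Arg1 had r = 0.676 with each other, rank 47 in the list of Nos2 and rank 69 in that of Arg1. These are descriptions of the same points and carry no test.

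Of the 47 genes of the wider arginine list, 42 had at least 20 counts in macrophage-like cells, and 3 of them (Nos2, Arg1 and Slc7a2) were at least 1.5-fold higher in the library labelled Lmo7-/- and 5 lower. These are 7.14% and 11.9% of the list, where 3.87% and 5.77% of all genes tested were past that size. The median log2 ratio of the list was -0.13, beside -0.10 for all genes. Without the 6 members, 0 of 36 genes were higher and 5 lower (13.9%). Slc7a1, the constitutive arginine transporter, was 44.1 CPM and 29.5 CPM, and Srm, the spermidine synthase, 63.1 CPM and 34.0 CPM, a log2 ratio of -0.89 (-1.03 to -0.75). Nos3, Ddah1 and Pycr1 were also lower, but with 14 and 8, 28 and 17, and 39 and 26 counts their intervals include 0. Gch1, which makes the cofactor that nitric oxide synthase needs, was 50.6 CPM and 46.0 CPM.

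Other gene lists moved with these values, and their part in the results was not tested. In macrophage-like cells the summed level of 10 interferon gamma genes was 2425 CPM in the library labelled Lmo7+/+ and 3997 CPM in the library labelled Lmo7-/-, with 10 of 10 higher in the latter, and that of 11 hypoxia genes was 2737 CPM and 3278 CPM, with 11 of 11 higher. Tumor cells had the same order, 1177 CPM and 1933 CPM for interferon gamma genes and 5468 CPM and 6510 CPM for hypoxia genes. Dissociation stress genes went the other way in macrophage-like cells, 3992 CPM and 3466 CPM, with 3 of 12 higher. The Hspa1b state, which led for Nos2 and Arg1, held 10787 CPM and 8129 CPM of the stress genes and 4874 CPM and 6179 CPM of the hypoxia genes, and without this state the log2 ratios in macrophage-like cells were 2.38 for Nos2 and 1.91 for Arg1. Tumor markers summed to 41.4 CPM and 37.3 CPM in macrophage-like cells, 4 of 16 at 0 in each library, and T cell markers to 62.9 CPM and 77.7 CPM. Macrophage markers summed to 207 CPM and 199 CPM in tumor cell-like cells, against 19168 CPM and 22394 CPM in macrophage-like cells, with 0 of 12 at 0.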

How the data were processed

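Cells of 1 tumor library per genotype were counted by the authors. The deposited files hold raw UMI counts per gene and cell barcode. The submitters' processing notes name Cell Ranger 2.1.1 and mm10, while the matrix header gives software version 3.0.0. A barcode was kept from 1000 UMIs and 500 genes upward, unless mitochondrial counts exceeded 15%. Counts were scaled to 10000 per cell and log-transformed, and cells of both libraries were clustered together without batch correction (2000 variable genes, 30 principal components, 20 neighbours, resolution 0.5). Clusters came from the Louvain method of igraph 0.11.9. A cluster was named "-like" only from marker lists. Macrophage-like and monocyte-like cells were reclustered into states without the 6 genes and the arginine list. States were named by their leading genes, of which 1 is not reported here. Doublets were marked per library with Scrublet in scanpy 1.11.5 (2.82% and 2.63% of cells) and were removed only in an alternative.

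Counts were summed per class or state and library and divided by the summed total (CPM). Exact Poisson intervals of levels, exact binomial intervals of ratios and Clopper-Pearson intervals of shares cover counting error only. With 1 library per genotype no test was made. Before shares and co-detection were taken, each cell was thinned at random to 1500 UMIs, without the cells below that depth. The expected number of cells with 2 genes is the product of their shares and the number of cells. Only the formulas for ratios and for co-detection were run on simulated data, and clustering, naming and thinning were not. The simulated counts for the ratios lacked the concentration of molecules in few cells. They therefore cannot show that the intervals hold for Nos2 and Arg1. The 6 genes, the gene lists and the marker lists were chosen with earlier results of these data known. The genes named were the 6 members, list genes at least 1.5-fold apart (0.58 on the log2 scale), and the 5 genes most like Nos2 and Arg1. Gch1, Tnfrsf9 as the first partner of Nos2, Hmga2 and the overlapping genes were named beside these, after their values were seen. Alternatives covered cell filters, resolution, components, doublets, scaling (TMM of edgeR 4.0.16), thinning and cells with markers of another lineage.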

Additional observations from a re-analysis of the deposited data

Results flagged for a closer look

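In several groups of cells a member differed between libraries in the opposite direction from macrophage-like cells, with a counting interval that left out 0. The difference between groups was not tested in any of these, since each genotype had 1 library. Arg1 had a log2 ratio (Lmo7-/- over Lmo7+/+) of -1.44 (-1.91 to -0.99) in the Retnla Folr2 Cbr2 state, beside 1.72 in macrophage-like cells, and of its 154 UMIs under the label Lmo7+/+, 69 and 62 lay in 2 cells. Arg2 had -1.48 (-3.23 to -0.05) in tumor cell-like cells, from 23 and 5 counts, beside 0.30. Slc7a2 had -0.28 (-0.43 to -0.12) in tumor cell-like cells and -0.41 (-0.62 to -0.21) in their Cdsn Car9 cluster, beside 0.81. Ass1 had -2.08 (-2.51 to -1.67) in the unnamed Enpp2 Serpine2 cluster, from 196 and 66 counts, beside 0.55.

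Droplets that the filter left out (2666 labelled Lmo7+/+ and 3303 labelled Lmo7-/-) entered no comparison and still carried 3 of the genes at different levels. Nos2 was 20.6 CPM and 63.2 CPM there, a log2 ratio of 1.61 (1.25 to 1.99). Arg1 was 5.48 CPM and 13.2 CPM, a log2 ratio of 1.27 (0.53 to 2.07). Slc7a2 was 40.2 CPM and 55.2 CPM, a log2 ratio of 0.46 (0.16 to 0.76).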

How the results depend on the processing

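Over 206 alternatives for the log2 ratios of the 6 genes in macrophage-like, monocyte-like and tumor cell-like cells, 181 stayed within the counting interval, 22 moved beyond it, and 3 reversed. In macrophage-like cells the ratio of Nos2 ranged from 1.77 to 2.38 and that of Arg1 from 1.68 to 2.39. Nos2 was 1.77 as a mean over cells, 2.38 without the Hspa1b Hspa1a Gpnmb state and 2.32 without the top 1% of its cells. Arg1 was 1.93 at resolution 0.2, where monocytes merged with macrophages, 1.84 without cells carrying markers of another lineage, 1.91 without the Hspa1b state and 2.39 without the top 1% of its cells. The reversed ratio was that of Slc7a2 in tumor cells, at 0.011 with a lenient filter on cells, 0.075 at resolution 0.2 and 0.10 with 20 principal components, and the cause was not tested. Arg1 in the Retnla Folr2 Cbr2 state reversed to 0.60 without the 2 highest cells of each library and was -0.73 at state resolution 0.3. Co-detection of Nos2 and Arg1 gave a ratio of 3.36 and 2.21 without thinning, 3.37 and 1.93 within states and, in the library labelled Lmo7-/-, 2.16 with a strict filter. The genes past 2-fold in macrophage-like cells, 160 higher and 167 lower, numbered 59 and 32 with at least 100 counts, 428 and 588 with at least 5 counts, and 196 and 130 with TMM scaling, which turned the split toward higher. The states with the highest Arg2 and Ass1 were Hspa1b Hspa1a Gpnmb and Ly6c2 Plac8 Ifitm1 at state resolutions 0.3 and 0.8. No paired analysis was possible because each genotype had 1 library, and none could be left out. The alternatives without the Hspa1b state, the top 1% of cells, the highest cells of the Retnla state, shared barcodes and macrophage-marked tumor cells, and the co-detection within states, were chosen after seeing the data. Depth limits every statement on states under 200 cells.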

Other observations

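A pair of unnamed clusters with markers of macrophages and of another lineage also held the pair of enzymes. The cluster led by Fcrls and Cx3cr1 (1239 cells) had Nos2 at 21.8 CPM (17.5 to 26.7) in the library labelled Lmo7+/+ and 67.0 CPM (59.0 to 75.7) in the library labelled Lmo7-/-, and Arg1 at 13.3 CPM and 32.2 CPM. Tumor cell markers summed to 311 CPM and 404 CPM in this cluster, beside 41.4 CPM and 37.3 CPM in macrophage-like cells. Their part in its values was not tested. The cluster led by Nkg7 and Cd8a (215 cells), whose leading genes are those of T cells and whose best marker list was that of macrophages, had Nos2 at 7.47 CPM (5 counts) and 82.8 CPM (71 counts), and Arg1 at 17.9 CPM (12 counts) and 56.0 CPM (48 counts). Odc1 was 749.9 CPM and 636 CPM in this cluster, between the level of T or NK cell-like cells and that of macrophage-like cells.

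Over the same 16 points of states and libraries, the levels of the members were alike to different degrees. Slc7a2 had r = 0.824 with Nos2 and 0.808 with Arg1, Arg2 had 0.675 with Ass1, and Odc1 had -0.40 with Arg2 and -0.45 with Ass1. These correlations describe points that share libraries and depth, and no test was made.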
